A study of Mus musculus with 6 samples.

Results

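Among neural stem cells being reprogrammed to pluripotency, cells that already held the pluripotency factor Nanog were sorted into those with and those without the epithelial adhesion molecule E-cadherin, and the RNA of 10 Notch pathway genes is described here. The genes are the ligands Dll1, Dll3, Jag1 and Jag2, the receptors Notch1, Notch2 and Notch3, and the target genes Hes1, Hes5 and Hey1. They are 10 of the 20325 genes in each table and were matched by gene symbol. They were chosen by their expected counts and TPM in both sorted populations and within equal replicate numbers, so the differences of these 10 genes between the populations are given as a description, with no test. Dll1 and Dll3 were lower in Nanog+E-cadherin+ cells in every pair of libraries with the same replicate number, by 2.72 to 3.92 times in TMM-scaled CPM, while Notch2, Notch3 and Hes1 were higher in some pairs and lower in others. Hes5 ranged over 25.5 times between replicate numbers in the mean TPM of both populations.

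Notch signalling passes between touching cells. Delta ligands (Dll) and Jagged ligands (Jag) on one cell bind Notch receptors on its neighbour, the receptor is then cut by proteases, and its inner fragment moves to the nucleus, where with the DNA-binding protein RBPJ it turns on repressors of the Hes and Hey families. In the developing brain these repressors hold neural stem cells undifferentiated, and cells that begin to form neurons raise Delta ligands under proneural factors such as the neurogenins.

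The 6 libraries came from neural stem cells of postnatal day 4 mice of mixed 129/Black 6 background. All cells of both groups carried 2 copies of the doxycycline-inducible Stemcca allele (Oct4, Sox2, c-Myc and Klf4) at ColA1 and 1 copy of rtTA, the activator that doxycycline switches on, at Rosa26, and all were kept in doxycycline until day 7. The groups, 3 libraries each, are Nanog+E-cadherin+ cells, set against Nanog+E-cadherin-, sorted after fixation and staining. The labels do not say whether replicates are separate cultures or animals, or how many animals were pooled. Each p-value rests on the spread among these libraries, part of which may be technical. Summed Y-linked RNA was 0.72 and 0 TPM in the replicate 2 libraries and at least 32.4 TPM in the others. No library of cells without doxycycline is among the 6.

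Total expected counts ran from 12345327 to 20934553 in Nanog+E-cadherin+ libraries and from 8851110 to 39630916 in Nanog+E-cadherin- libraries. Cdh1, which encodes E-cadherin, had 30.5, 68.6 and 61.2 TPM in Nanog+E-cadherin+ libraries, against 5.20, 9.68 and 7.84 TPM in Nanog+E-cadherin- libraries; its protein defined the sort. Olfactory receptor genes, which these cells are not known to use, summed to 18.9, 93.0 and 49.9 CPM in Nanog+E-cadherin+ replicates 1, 2 and 3, against 19.5, 878.5 and 585.4 CPM in Nanog+E-cadherin- replicates 1, 2 and 3. The last 2 libraries stand apart in this, and values without both are given for Dll1 and Dll3 below. Microglial markers were at or near 0, with a summed TPM of at most 2.7 in any library and Tyrobp at 0 in all. Among the neural stem cell markers, Nes had 18.1 to 109.1 TPM in Nanog+E-cadherin+ libraries and 23.7 to 113.7 TPM in Nanog+E-cadherin- libraries.

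All 10 genes were read deeply enough to be fitted, with expected counts of 58 to 10485 and 4.15 to 328.3 TPM (transcript abundance, a level corrected for gene length). The plot of TPM by library gives each gene in every library.

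**Figure D1:**
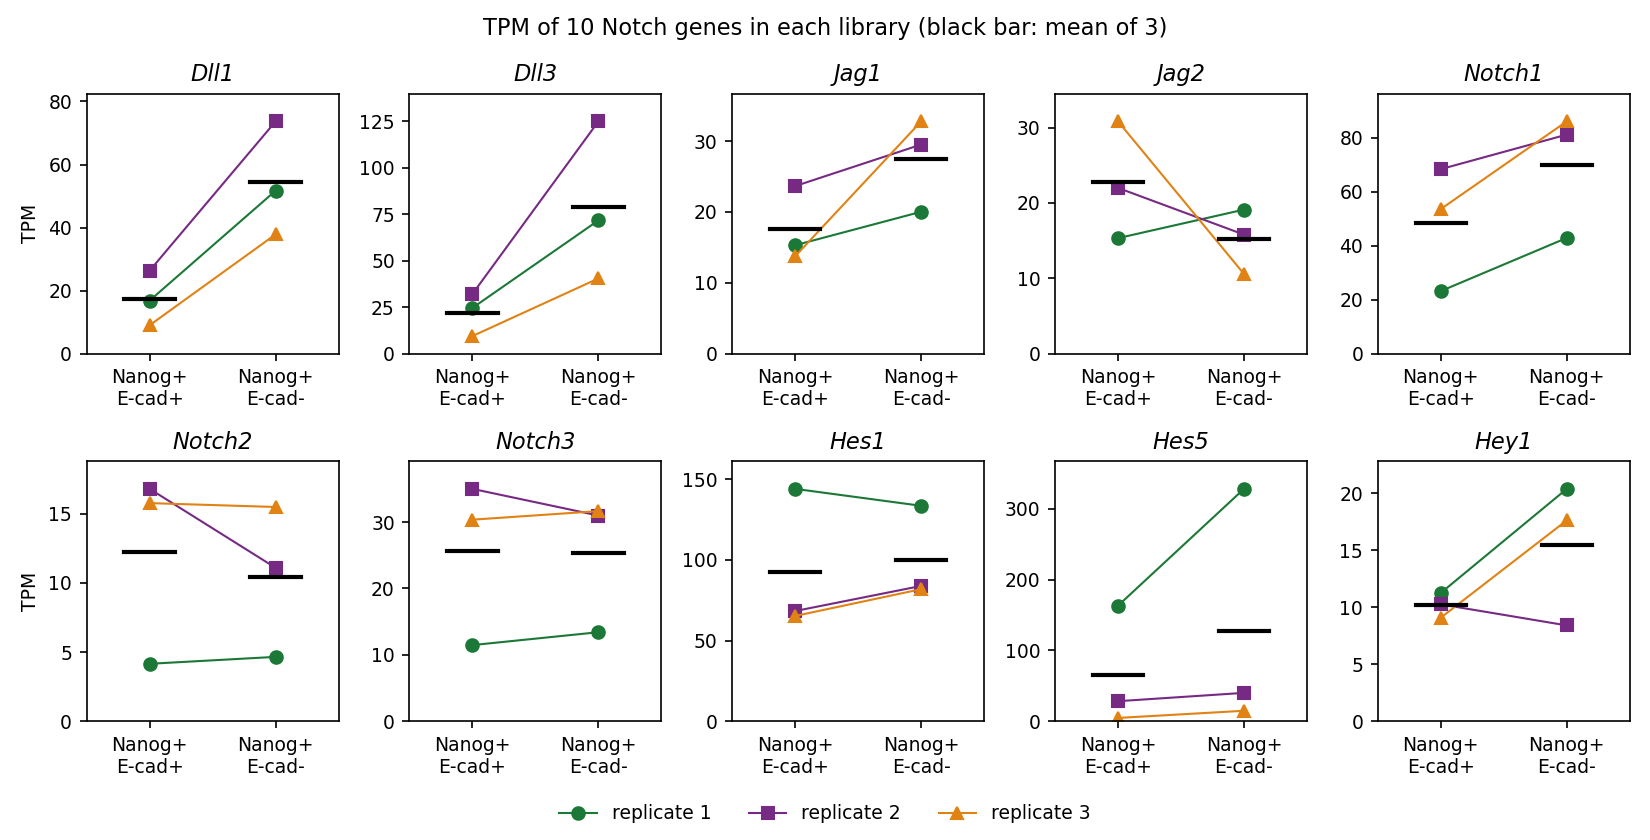
TPM of each of the 10 Notch genes (vertical axes, from 0, a scale for each gene) in Nanog+E-cadherin+ libraries on the left of each panel and Nanog+E-cadherin- libraries on the right; points and lines join libraries with equal replicate numbers and black bars are means of 3. All 3 lines of Dll1 and Dll3 run higher on the Nanog+E-cadherin- side, while Hes5, Hes1, Notch2 and Notch3 are set apart by replicate 1.

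The Delta ligands had the lowest fitted log2 fold changes of the 10 genes. Dll1, the ligand that activates Notch on neighbouring cells, had 16.8, 26.3 and 9.02 TPM in Nanog+E-cadherin+ replicates 1, 2 and 3, against 51.7, 73.7 and 37.9 TPM in Nanog+E-cadherin- replicates 1, 2 and 3. Every Nanog+E-cadherin+ library lay below every Nanog+E-cadherin- library. The means were 17.4 ± 8.67 TPM in Nanog+E-cadherin+ cells and 54.4 ± 18.1 TPM in Nanog+E-cadherin- cells (SD, n = 3 each). On the log2 scale of TMM-scaled CPM (read counts relative to library size), the ratio of Nanog+E-cadherin+ over Nanog+E-cadherin- was -1.52, -1.49 and -1.86 in replicates 1, 2 and 3. The fitted log2 fold change was -1.57 ± 0.47 (SE) with the group alone and -1.62 ± 0.17 with the replicate number as a block, that is, as a second term shared by both populations.

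Dll3, a divergent Delta ligand that in mouse acts inside the cell and inhibits signalling, followed the same order. It had 24.6, 32.1 and 9.45 TPM in Nanog+E-cadherin+ replicates 1, 2 and 3, against 71.6, 124.8 and 40.4 TPM in Nanog+E-cadherin- replicates 1, 2 and 3. In TPM the groups did not overlap, but in TMM-scaled CPM they did, since Nanog+E-cadherin+ replicate 1 had 40.6 CPM and Nanog+E-cadherin- replicate 3 had 38.4 CPM. Its log2 ratios within equal numbers were -1.44, -1.97 and -1.88, and its fitted log2 fold change was -1.73 ± 0.60 (SE) with the group alone and -1.76 ± 0.19 with the replicate block. Without Nanog+E-cadherin- replicates 2 and 3, the libraries of high olfactory receptor counts, only replicate 1 of that population was left. The group-only log2 fold change was then -1.90 for Dll1 and -2.00 for Dll3, beside log2 ratios of -1.52 and -1.44 within replicate 1. Single libraries left out in turn gave -1.20 to -1.85 for Dll1 and -1.30 to -2.11 for Dll3.

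Between the populations, an adjusted p under 0.05 in edgeR's quasi-likelihood test on the group alone was reached by 0% of the 13460 genes tested, in either direction, and by 0 of the 10 members. In that test 359 genes and 2 members had an unadjusted p under 0.05. DESeq2 called 21 genes and no member while limma-voom called neither. DESeq2 gave no adjusted p to 7834 of the 13460 genes in this fit, so those could not be called. With the replicate block, edgeR called 41 genes (0.305%), 12 of them (0.0892%) in the lower direction, and Dll1 and Dll3 are 2 of those 12. Since these values chose the genes, nothing is read from that count. In TMM-scaled CPM, 2 members, Dll1 and Jag1, were lower in all Nanog+E-cadherin+ libraries than in all Nanog+E-cadherin- libraries, as were 3.25% of all genes tested.

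As a sum, neuron markers ran the same way within each number. Their 12 genes summed to 651.6, 273.8 and 184.1 TPM in Nanog+E-cadherin+ replicates 1, 2 and 3, against 934.1, 542.5 and 308.5 TPM in Nanog+E-cadherin- replicates 1, 2 and 3, so within each number the sum was lower in the E-cadherin-positive library, while the groups overlapped. None of the 12 was at 0 in all libraries. Tubb3, a neuronal tubulin, and Stmn2 held much of the sum. Tubb3 had 262.1, 98.6 and 35.6 TPM in Nanog+E-cadherin+ replicates 1, 2 and 3, against 518.4, 310.9 and 100.2 TPM in Nanog+E-cadherin- replicates 1, 2 and 3. Stmn2 had 321, 88.9 and 95.8 TPM in Nanog+E-cadherin+ replicates 1, 2 and 3, against 290, 95.8 and 113.9 TPM in Nanog+E-cadherin- replicates 1, 2 and 3. With the replicate block, 9 of the 12 had log2 fold changes below 0 and 3 above it, Stmn2 (0.03), Mtap2 (0.08) and Gap43 (0.65). With the replicate block, 2 of the 12 were called lower in edgeR, Tubb3 (log2 fold change -1.27 ± 0.17, SE, adjusted p = 0.0370), and Nsg2, a neuronal membrane protein (-1.41 ± 0.20, adjusted p = 0.0371). With the group alone neither was called (adjusted p = 0.9999 for both). Over all 13460 genes tested with the block, 6473 were below 0 and 12 (0.0892%) were called lower. The part of these markers in the Delta ligand values was not tested. In sorted bulk RNA, fewer cells of a type and less RNA per cell cannot be told apart.

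The E-box CAGCTG is a sequence that proneural factors with a basic helix-loop-helix domain can bind, and the stretches that hold it near the start sites of the ligand genes are shown because Dll1 and Dll3 moved together. The RefSeq promoter windows (GRCm38.p6, 250 bases before to 50 after each start) matched 8 of the 10 genes, with 9 windows; Hes1 and Hey1 had no entry. The E-box, which reads the same on both strands, was in the windows of 3 members, Dll1, Dll3 and Jag1, and in 16.3% of 32851 windows. The distances from the start to the first base of the motif are 132 bases upstream for Dll1 (the outer of 2 starts), 7 for Dll3 and 82 for Jag1. All 3 genes lie on the minus strand, at chr17:15377047-15377076, chr7:28301775-28301804 and chr2:137116585-137116614. The sequences run 5′ to 3′ along the gene, with the motif in capitals.
Dll1: tgcattaccataCAGCTGagcgcacaaaga
Dll3: tccggcatccagCAGCTGcgactcctgaga
Jag1: ccgcgtttcatgCAGCTGatctgaaaggga
A match is a string of letters, and no binding was measured.

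The Jagged ligands went different ways. Jag1 had 15.3, 23.7 and 13.8 TPM in Nanog+E-cadherin+ replicates 1, 2 and 3, against 20.0, 29.5 and 32.8 TPM in Nanog+E-cadherin- replicates 1, 2 and 3. It was lower within each number, with log2 ratios of -0.29, -0.33 and -1.04, and the groups overlapped in TPM but not in TMM-scaled CPM. Its fitted log2 fold change was -0.52 ± 0.25 (SE) with the group alone and -0.55 ± 0.20 with the block.

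Jag2 had 15.3, 22.0 and 30.8 TPM in Nanog+E-cadherin+ replicates 1, 2 and 3, against 19.1, 15.8 and 10.6 TPM in Nanog+E-cadherin- replicates 1, 2 and 3. The direction was not shared by the pairs, whose log2 ratios were -0.22, 0.47 and 1.76. The fitted log2 fold change was 0.55 ± 0.41 (SE) with the group alone and 0.65 ± 0.34 with the block. Single libraries left out in turn gave 0.26 to 1.07. Leaving out Nanog+E-cadherin- replicates 2 and 3, which leaves only replicate 1 in that population, gave -0.12.

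Shares within a library do not depend on how libraries are scaled to each other. Dll1 and Dll3 together made up 57.5%, 56.1% and 29.3% of the summed TPM of the 4 ligands in Nanog+E-cadherin+ replicates 1, 2 and 3, against 75.9%, 81.4% and 64.3% in Nanog+E-cadherin- replicates 1, 2 and 3. The groups did not overlap in this share, whose mean was 47.6 ± 15.9% in Nanog+E-cadherin+ cells and 73.9 ± 8.71% in Nanog+E-cadherin- cells (SD, n = 3 each). The summed Jagged TPM was 30.6 to 45.7 in Nanog+E-cadherin+ libraries and 39.2 to 45.3 in Nanog+E-cadherin- libraries, so the ranges overlapped, while the summed Delta TPM was 18.5 to 58.4 in Nanog+E-cadherin+ libraries and 78.3 to 198.5 in Nanog+E-cadherin- libraries. The ratio of Jag2 to Jag1 in TPM was 1.001, 0.930 and 2.24 in Nanog+E-cadherin+ replicates 1, 2 and 3, against 0.955, 0.535 and 0.323 in Nanog+E-cadherin- replicates 1, 2 and 3.

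**Figure D2:**
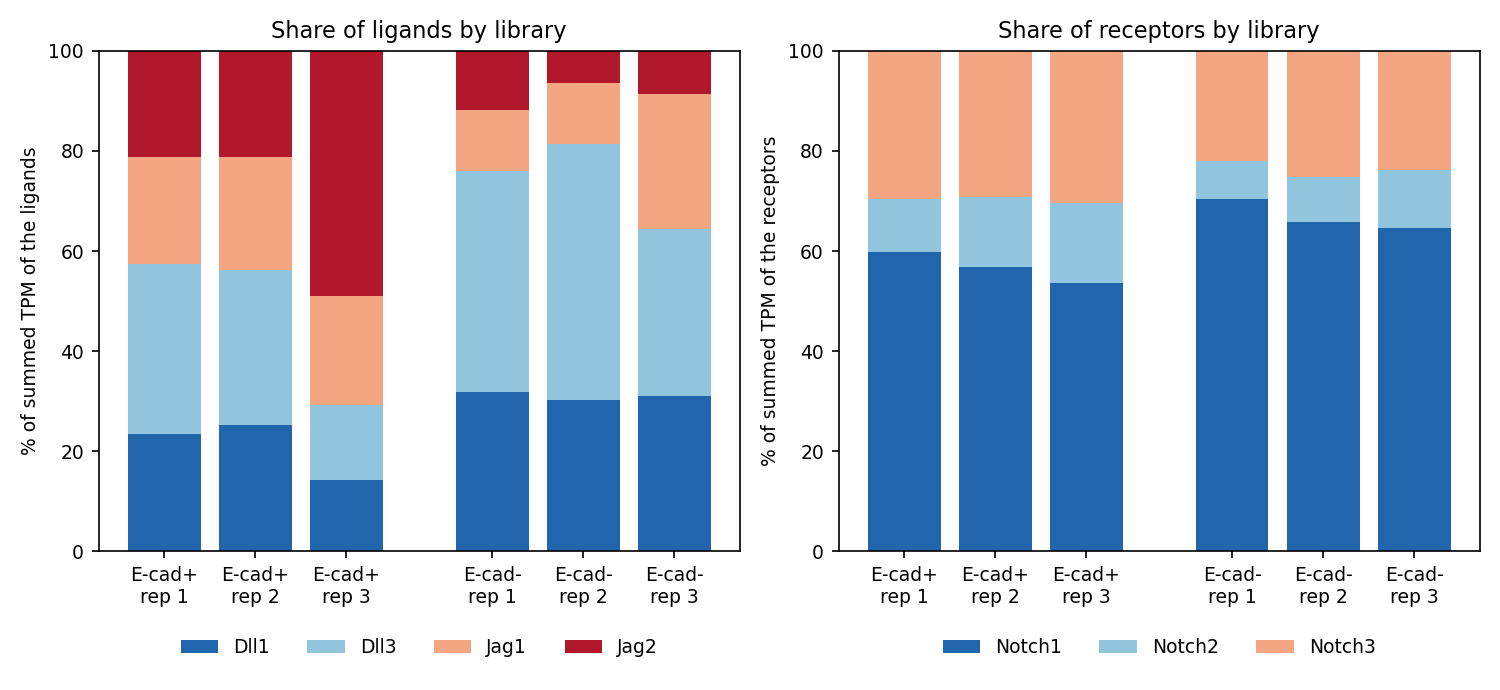
Share of the summed TPM (vertical axes, percent, 0 to 100) taken by each of the 4 ligands (left) and the 3 receptors (right), with 1 bar per library, the 3 Nanog+E-cadherin+ libraries left of the 3 Nanog+E-cadherin- libraries. Blue ligand segments (Dll1 and Dll3) reach 29.3% to 57.5% in Nanog+E-cadherin+ libraries and 64.3% to 81.4% in Nanog+E-cadherin- libraries, and Notch1 takes 53.7% to 59.7% and 64.6% to 70.4% of the receptors in the same order.

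Of the receptors, Notch1 was the highest in TPM in every library. Notch1, a main receptor of neural stem cells, had 23.2, 68.3 and 53.5 TPM in Nanog+E-cadherin+ replicates 1, 2 and 3, against 42.8, 81.1 and 86.0 TPM in Nanog+E-cadherin- replicates 1, 2 and 3. The groups overlapped, and the log2 ratio was below 0 within each number (-0.79, -0.26 and -0.47). The fitted log2 fold change was -0.47 ± 0.28 (SE) with the group alone and -0.51 ± 0.15 with the block.

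Notch2 had 4.15, 16.8 and 15.8 TPM in Nanog+E-cadherin+ replicates 1, 2 and 3, against 4.65, 11.1 and 15.5 TPM in Nanog+E-cadherin- replicates 1, 2 and 3. Notch3, a receptor also known from mural cells of vessels, had 11.5, 35.0 and 30.4 TPM in Nanog+E-cadherin+ replicates 1, 2 and 3, against 13.4, 31.0 and 31.6 TPM in Nanog+E-cadherin- replicates 1, 2 and 3. For both, the values of the populations overlapped and replicate 1 was the lowest in each. The log2 fold changes with the block were 0.25 ± 0.19 (SE) for Notch2 and 0.06 ± 0.15 for Notch3. With the group alone they were 0.31 ± 0.42 for Notch2 and 0.09 ± 0.30 for Notch3. Single libraries left out in turn gave 0.089 to 0.64 for Notch2 and -0.064 to 0.33 for Notch3. Leaving out Nanog+E-cadherin- replicates 2 and 3, which leaves only replicate 1 in that population, gave 0.93 and 0.50. Within replicates 1, 2 and 3 the log2 ratios were -0.06, 0.59 and 0.24 for Notch2 and -0.13, 0.17 and 0.15 for Notch3. As a share of the summed receptor TPM, Notch1 held 59.7%, 56.9% and 53.7% in Nanog+E-cadherin+ replicates 1, 2 and 3, against 70.4%, 65.8% and 64.6% in Nanog+E-cadherin- replicates 1, 2 and 3. These shares did not overlap, and the ratio of Notch1 to Notch3 in TPM was 1.91 ± 0.13 in Nanog+E-cadherin+ cells and 2.84 ± 0.31 in Nanog+E-cadherin- cells (SD, n = 3 each).

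Of the target genes, Hes1 took no shared direction and Hes5 varied over a wide range. Hes1, a repressor with roles in many tissues, had 144.1, 68.3 and 65.3 TPM in Nanog+E-cadherin+ replicates 1, 2 and 3, against 133.6, 83.9 and 81.9 TPM in Nanog+E-cadherin- replicates 1, 2 and 3. The populations overlapped and replicate 1 was the highest in both. Its log2 fold change was 0.04 ± 0.59 (SE) with the group alone and -0.07 ± 0.17 with the block.

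Hes5, a repressor typical of neural stem cells, had 163.2, 28.2 and 4.56 TPM in Nanog+E-cadherin+ replicates 1, 2 and 3, against 328.3, 40.0 and 14.7 TPM in Nanog+E-cadherin- replicates 1, 2 and 3. The value was lower in Nanog+E-cadherin+ cells within each number, with log2 ratios of -0.91, -0.51 and -1.48, yet the groups overlapped, with both replicate 1 libraries the highest of their population. The log2 fold change was -0.89 ± 1.56 (SE) with the group alone and -0.92 ± 0.21 with the block, and it reversed to 1.90 when Nanog+E-cadherin- replicate 1 was left out of the group-only fit. The lowest counts, 58 in Nanog+E-cadherin+ replicate 3 and 77 in Nanog+E-cadherin- replicate 3, have exact Poisson 95% intervals of 44.0 to 75.0 and 60.8 to 96.2, which cover counting error only.

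Hey1, a further repressor of this family, had 11.3, 10.3 and 9.08 TPM in Nanog+E-cadherin+ replicates 1, 2 and 3, against 20.4, 8.40 and 17.6 TPM in Nanog+E-cadherin- replicates 1, 2 and 3. Replicate 2 ran the other way from replicates 1 and 3, with log2 ratios of -0.76, 0.28 and -0.74. The log2 fold change was -0.55 ± 0.52 (SE) with the group alone and -0.42 ± 0.30 with the block.

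**Figure D3:**
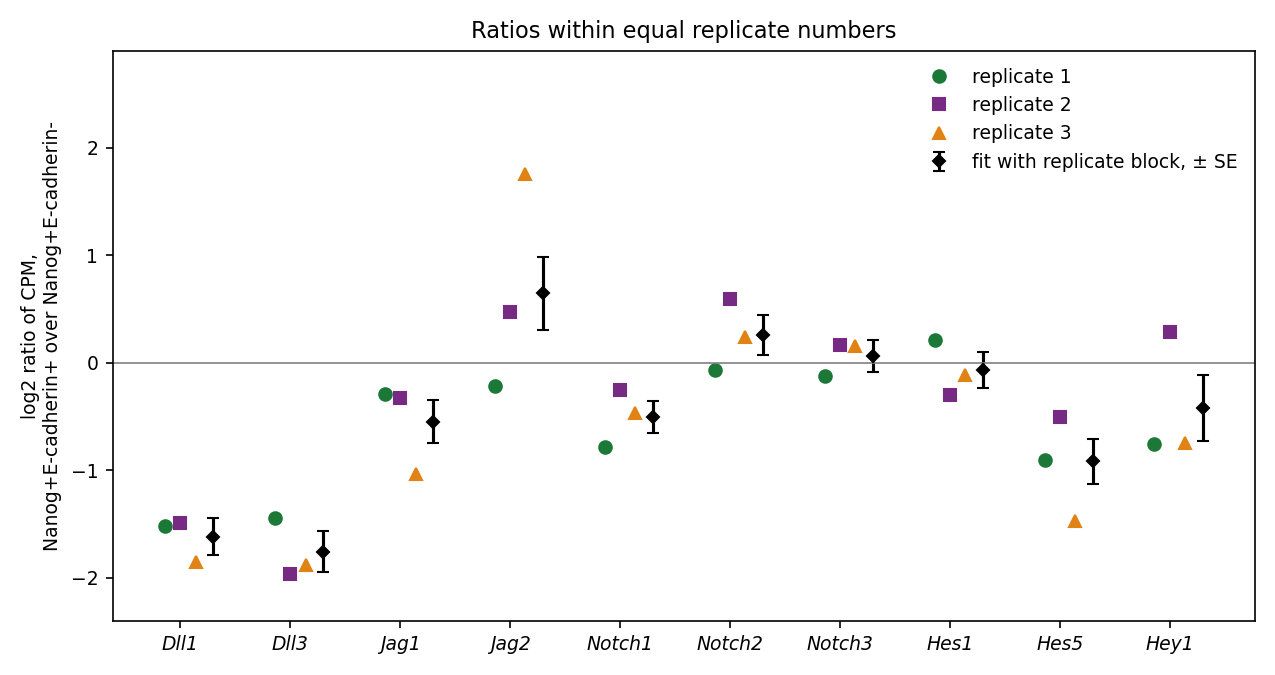
Log2 ratio of TMM-scaled CPM, Nanog+E-cadherin+ over Nanog+E-cadherin- (vertical axis), within replicates 1, 2 and 3 for each gene (coloured points) and the fitted log2 fold change with the replicate block ± SE (black). All 3 ratios of Dll1 and Dll3 lie between -1.44 and -1.97, Jag1, Notch1 and Hes5 lie below 0 in all 3, and Jag2 runs from -0.22 to 1.76.

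RBPJ binds the sequence GTGGGAA, or TTCCCAC on the other strand, and the Hes5 stretches that hold it are shown because Hes5 is the Notch target that varied the most. The motif was found in 6.38% of the 32851 windows and at least 2 times in 0.26%, both strands searched. Among the members with a window, Hes5 was the 1 gene to hold it, with 2 matches whose first bases lie 226 and 83 bases upstream of the start on which the window is built, 143 bases apart. The RefSeq gene record of Hes5 begins further upstream than that start, so both matches lie inside the record. They are on the plus strand at chr4:154960686-154960715 and chr4:154960829-154960858, and capitals mark the motif.
Hes5 distal: gggcgagcgcgTTCCCACagcccggacatt
Hes5 proximal: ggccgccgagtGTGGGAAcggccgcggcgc
No match in the other windows says only that these letters are not there.

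Several of the genes also differed between replicate numbers. Values within equal numbers were in view when the genes were chosen, so these differences too are a description. In the fit with group and number, edgeR called the number for 6 of the 10 members, Hes5, Hes1, Dll3, Dll1, Notch2 and Notch3, and for 22.2% of all genes tested (2994), and nothing is read from the count of members. What the number stands for is not given in the labels.

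The mean TPM of both populations shows how these genes differed between numbers. Hes5 stood at 245.7, 34.1 and 9.63 TPM in replicates 1, 2 and 3, a range of 25.5 times. Hes1 stood at 138.9, 76.1 and 73.6 TPM, so both targets were highest in replicate 1. Notch2 stood at 4.40, 13.9 and 15.6 TPM and Notch3 at 12.4, 33.0 and 31.0 TPM, so both receptors were lowest there. Dll1 stood at 34.3, 50.0 and 23.4 TPM and Dll3 at 48.1, 78.5 and 24.9 TPM, highest in replicate 2 and lowest in replicate 3.

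Markers of other cells also differed by number. The summed TPM of the mural markers was 81.4, 1031 and 1197 in Nanog+E-cadherin+ replicates 1, 2 and 3, against 65.6, 1355 and 1190 in Nanog+E-cadherin- replicates 1, 2 and 3, and nearly all of it came from the contractile genes Acta2 and Tagln (54.1 and 21.9 TPM in Nanog+E-cadherin+ replicate 1, 729.9 and 459.5 TPM in Nanog+E-cadherin+ replicate 3). Of the other mural markers, Rgs5 was at 0 in all libraries, Kcnj8, Abcc9 and Myh11 reached at most 1.02 TPM in any library, Pdgfrb ranged from 0.60 to 16.5 TPM, and Des ran the other way, with 4.67, 1.07 and 1.01 TPM in Nanog+E-cadherin+ replicates 1, 2 and 3. The astrocyte markers summed to 154.1, 618.7 and 990.0 TPM in Nanog+E-cadherin+ replicates 1, 2 and 3, against 131.1, 533.8 and 836.0 TPM in Nanog+E-cadherin- replicates 1, 2 and 3. Both sums were lowest in replicate 1 of each population, as were Notch2 and Notch3. So were the sums of the neural stem cell, oligodendrocyte, endothelial, epithelial and microglial markers. The neural stem cell sum was 227.4, 499.2 and 581 TPM in Nanog+E-cadherin+ replicates 1, 2 and 3, against 284.1, 562.7 and 757.4 TPM in Nanog+E-cadherin- replicates. The neuron sum was highest in replicate 1 of each population. Endothelial markers summed to 3.45 to 27.7 TPM over all libraries, with 3 of 8 under 1 TPM throughout. The 4 Y-linked genes read summed to 0.72 TPM in Nanog+E-cadherin+ replicate 2, to 0 TPM in Nanog+E-cadherin- replicate 2 and to at least 32.4 TPM in the other libraries. The part of these markers in the differences by number was not tested.

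**Figure D4:**
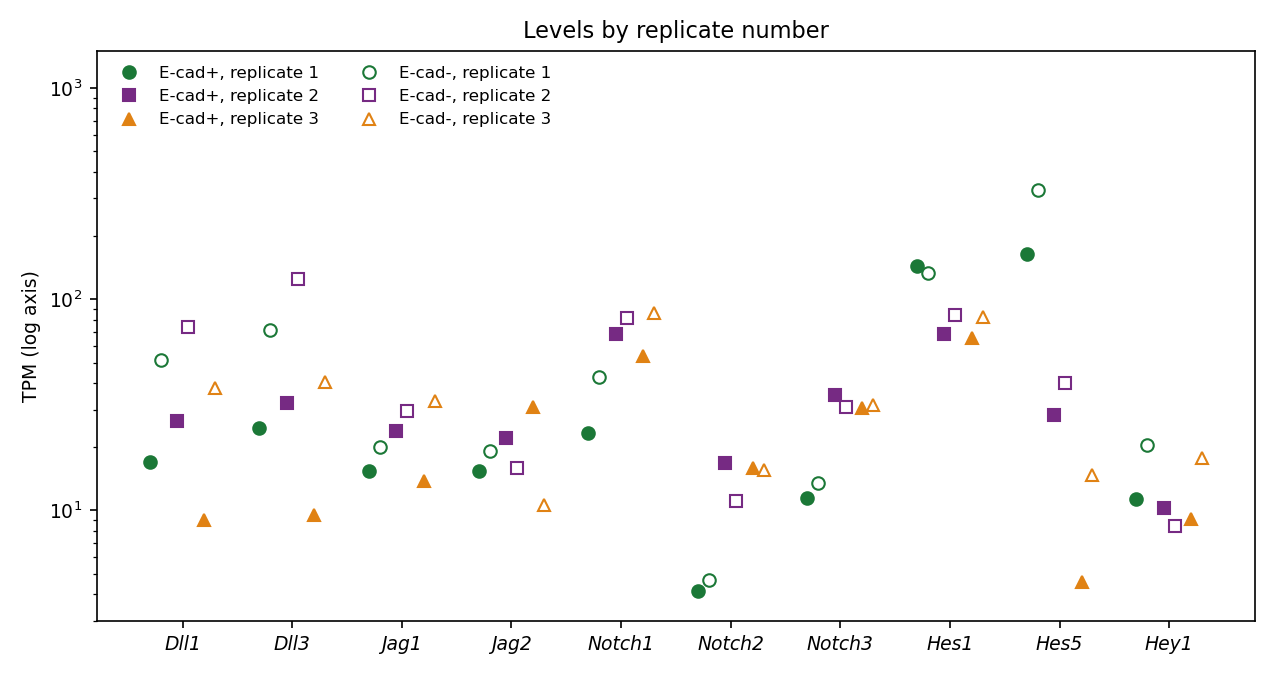
TPM (log axis) of the 10 genes by replicate number, with filled symbols for Nanog+E-cadherin+ and open symbols for Nanog+E-cadherin- libraries. Hes5 spans 4.56 to 328.3 TPM, and replicate 1 is highest for Hes5 and Hes1 and lowest for Notch2 and Notch3.

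Over the 6 libraries, log2 CPM of Notch3 ran with that of Notch2 (Pearson r = 0.954) and against that of Hes1 (r = -0.992), and Dll1 ran with Dll3 (r = 0.989) and with Jag1 (r = 0.905). These are descriptions over 6 points that share library, population and number. The genes most like Dll1 among 10445 candidates were Ezr (r = 0.990), which links membranes to actin, then Dll3, Gata2, a transcription factor (0.988), Tox3 (0.985) and Frem2 (0.984). Dll3 had Dll1, Ube2ql1 (0.988), Frem2 (0.981), Elf2 (0.980) and Wdr3 (0.979) as its closest. Hes5 had Sfrp2, a secreted Wnt modulator (0.996), Npc2 (0.993), Ralb (0.993), Snw1 (0.992) and Ak4 (0.990). Notch1 had Zfp740 (0.992), Clip1 (0.986), Entpd7 (0.985), Brd1 (0.985) and Sema4g (0.985). The value of r leaves out the size of a change. With the block, the genes named for Dll1 (-1.62) had log2 fold changes of -1.76 (Dll3) to -0.29 (Ezr). Those named for Dll3 (-1.76) had -1.62 (Dll1) to -0.17 (Wdr3). For Hes5 (-0.92) the range was -0.58 (Ak4) to -0.01 (Snw1), and for Notch1 (-0.51) it was -0.75 (Sema4g) to -0.20 (Brd1).

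In order of mean TPM, Nanog+E-cadherin+ cells had Hes1 (92.6), Hes5 (65.3), Notch1 (48.3), Notch3 (25.6), Jag2 (22.7), Dll3 (22.0), Jag1 (17.6), Dll1 (17.4), Notch2 (12.2) and Hey1 (10.2). No gap between neighbours in that order was above the larger SD of the pair. Nanog+E-cadherin- cells had Hes5 (127.7), Hes1 (99.8), Dll3 (79.0), Notch1 (70.0), Dll1 (54.4), Jag1 (27.5), Notch3 (25.3), Hey1 (15.5), Jag2 (15.2) and Notch2 (10.4). There the gap between Dll1 and Jag1 alone was above the larger SD. Dll1 held place 5, 6 and 9 of 10 in Nanog+E-cadherin+ replicates 1, 2 and 3, against place 4 in all 3 Nanog+E-cadherin- replicates.

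Beyond the members, 56 other Notch pathway genes and 10 proneural factors were listed, of which 61 were tested. With the group alone, edgeR called 0 of the 61 (1 with an unadjusted p under 0.05), and DESeq2 and limma-voom called 0. In that DESeq2 fit, 7834 of all 13460 genes had no adjusted p and could not be called. With the replicate block, edgeR again called 0 (smallest adjusted p = 0.131, 11 with an unadjusted p under 0.05, as had 10.7% of all genes tested). DESeq2 with the block called 5 of the 61 and 2.26% of all genes, and limma-voom called 5 of the 61 and 1.96% of all genes. The genes that both tools called lower are Dlk1, Dll4, Mfng and Neurog1; Hes6 was called lower by limma-voom and Notch4 higher by DESeq2. Of the 56 Notch genes, 22 had a log2 fold change above 0 and 34 below it with the block, with a median of -0.08, beside 0.02 over all genes and -0.46 over the 10 members.

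Dll4, a further Delta ligand, had 4.68, 6.87 and 2.39 TPM in Nanog+E-cadherin+ replicates 1, 2 and 3, against 13.8, 20.2 and 5.20 TPM in Nanog+E-cadherin- replicates 1, 2 and 3. The log2 fold change with the block was -1.32 ± 0.27 (SE, edgeR adjusted p = 0.131), and its libraries overlapped. Dlk1, a Delta-like protein without the domain that binds Notch in the usual way, had a log2 fold change of -0.99 ± 0.29 (adjusted p = 0.271). Notch4, named after its values were seen because 1 tool called it, had 1.57 ± 0.48 (adjusted p = 0.290).

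Mfng, a glycosyltransferase that modifies receptors, had 82.3, 87.5 and 47.9 TPM in Nanog+E-cadherin+ replicates 1, 2 and 3, against 159.8, 147.8 and 74.2 TPM in Nanog+E-cadherin- replicates 1, 2 and 3, and a log2 fold change with the block of -0.68 ± 0.16 (adjusted p = 0.177). Lfng, its relative, had 0.17 ± 0.20 (adjusted p = 0.785). Among genes of ligand uptake, Mib1 had -0.38 ± 0.33 (adjusted p = 0.705) and Mib2 had -0.12 ± 0.17 (adjusted p = 0.815). Of the gamma-secretase parts, Psenen had 0.51 ± 0.23 (adjusted p = 0.467) and Aph1a 0.07 ± 0.17 (adjusted p = 0.910).

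In the nuclear complex, all 8 genes had log2 fold changes below 0, with a median of -0.28 and 0 called in edgeR with the block (1 with an unadjusted p under 0.05). Over all 13460 genes tested with the block, 6473 were below 0 and 10.7% had an unadjusted p under 0.05. Rbpj, the DNA-binding partner, had -0.20 ± 0.18 (adjusted p = 0.719), and Snw1, its co-activator, had -0.01 ± 0.14 (adjusted p = 0.984). The co-repressor Ctbp1 had 0.03 ± 0.14 (adjusted p = 0.949). For Nedd4, a ubiquitin ligase, the value was -0.27 ± 0.14 (adjusted p = 0.524), and for Dtx3 it was -0.12 ± 0.17 (adjusted p = 0.835).

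Hes6, a family member that acts against Hes1, had 395.0, 520.4 and 272.5 TPM in Nanog+E-cadherin+ replicates 1, 2 and 3, against 785.7, 1105 and 296.2 TPM in Nanog+E-cadherin- replicates 1, 2 and 3. Its log2 fold change with the block was -0.64 ± 0.22 (adjusted p = 0.352), and Hes3 had -0.05 ± 0.68 (adjusted p = 0.984). Of the list of proneural factors, Insm1, which such factors induce, had -0.25 ± 0.15 (adjusted p = 0.582). Neurog1, named after its values were seen because DESeq2 and limma-voom called it, had 13.5, 14.7 and 4.34 TPM in Nanog+E-cadherin+ replicates 1, 2 and 3, against 48.7, 24.9 and 14.7 TPM in Nanog+E-cadherin- replicates 1, 2 and 3. Its log2 fold change with the block was -1.36 ± 0.28 (adjusted p = 0.132).

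**Figure D5:**
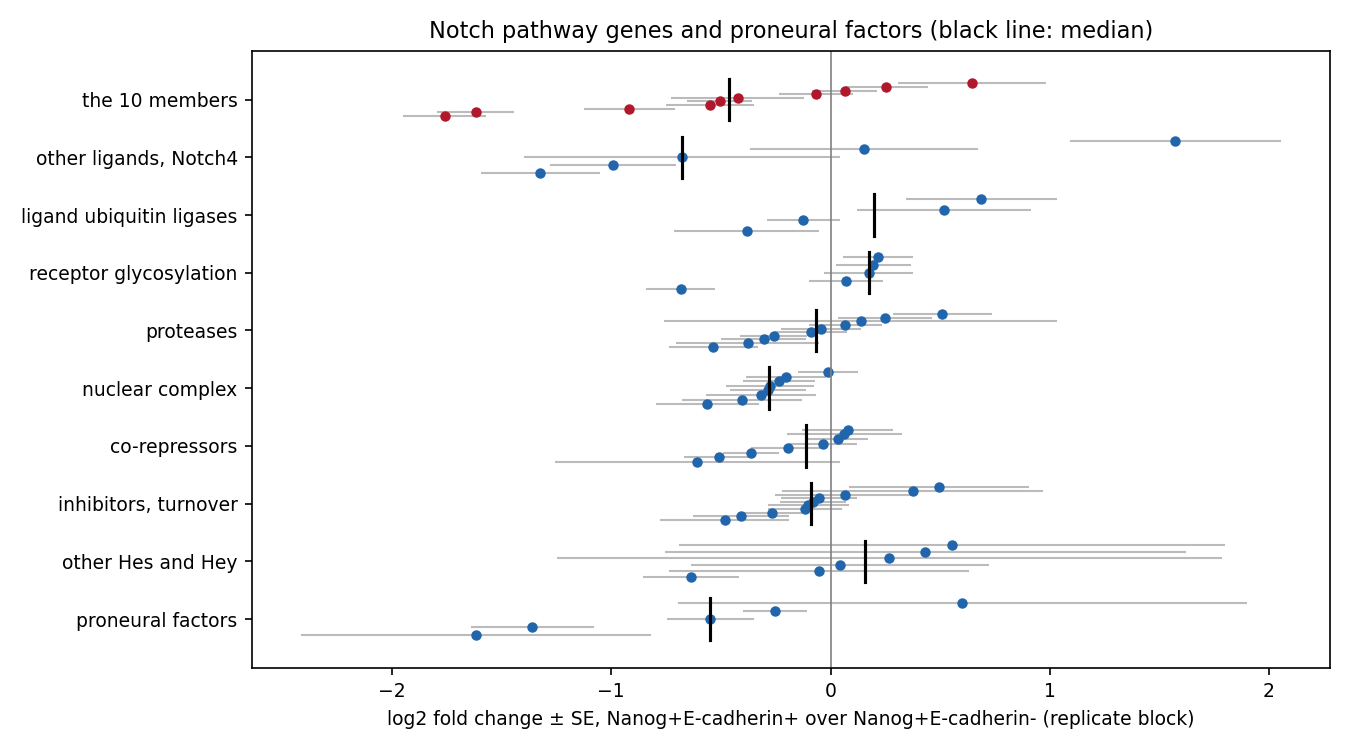
Log2 fold change with the replicate block ± SE, Nanog+E-cadherin+ over Nanog+E-cadherin- (horizontal axis), for the 10 members (red) and the tested genes of each other list (blue), with the median of each list as a black line. The members' median is -0.46 and that of the nuclear complex is -0.28, with all 8 genes of the nuclear complex below 0, as are 6473 of all 13460 genes tested.

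Counting could mix some genes. In the GENCODE annotation of GRCm38, exons of Dll1, Notch1, Notch3 and Hes5 overlap genes on the opposite strand, and exons of Notch2 overlap a gene on its own strand. Whether counting used strand is not stated in the labels, so the reads of each pair cannot be told apart.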

How the data were processed

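RNA of 6 sorted libraries was sequenced from TruSeq libraries, per the labels' protocols. The authors' files give an expected count, a TPM and an FPKM per gene, per the file headers; the submitters' processing notes name Bowtie, RSEM 1.2.4 and mm9, with settings not given in the sources used here. RSEM divides reads that match several genes. The deposited expected counts were rounded to whole numbers for count tests, the authors' TPM values were used for levels between genes and, as log2(TPM + 1) and log2(TPM + 0.1), for alternatives, and the authors' FPKM values stayed out of every computation.

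Groups and replicate numbers came from the sample titles. edgeR 4.0.16 in R 4.3.3 was fitted to all 13460 genes past filterByExpr (minimum count 10, minimum total 15) with TMM and quasi-likelihood tests, with group as the only term, threshold adjusted p 0.05 (Benjamini-Hochberg). A fit with the replicate number as a block, DESeq2 1.42.0, limma 3.58.1, other scalings, no filter and leaving out libraries were alternatives, and some with the block were added after seeing the data. Deviations from the group means correlated at 0.755, 0.411 and 0.483 between libraries of equal number and at -0.617 to 0.122 between others, so the numbers pair the libraries by their values; the labels do not say why. The biological coefficient of variation was 0.499 without and 0.285 with the block.

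Olfactory receptor sums are CPM of library totals. Total counts of 8851110 to 39630916 set the precision. The members and lists were chosen with earlier results of these data known. The text names every member, the 2 genes of highest mean TPM in each other list, any called gene there, and, for Dll1, Dll3, Hes5 and Notch1, the 5 genes of highest correlation at a mean CPM of at least 5, and says where others were added; some genes under this rule are not reported here. Promoter windows are RefSeq GRCm38.p6, matched by symbol; mm9 coordinates are not used here.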

Additional observations from a re-analysis of the deposited data

How the results depend on the processing

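Of the recomputed log2 fold changes of the 10 members, 195 stayed within 1 SD of the ratios of their pairs, 21 moved further with the same sign and 4 moved further with the other sign. The sign changed in 21 values in all, 17 of them within that spread, in Hes1, Notch3 and Jag2. Leaving out single libraries gave -0.81 to 0.65 for Hes1, where -0.81 (without Nanog+E-cadherin+ replicate 1) is such a sign change, -3.50 to 1.90 for Hes5 and -0.90 to 0.052 for Hey1, where 1.90 and 0.052 (Nanog+E-cadherin- replicate 1 left out) are such changes. Hes1 was also at -0.71 with Nanog+E-cadherin- replicates 2 and 3 both left out, a group-only fit that leaves only replicate 1 in that population. Within replicate 1 the log2 ratio of Hes1 was 0.21. That fit set 136.3 CPM in Nanog+E-cadherin- replicate 1 against 157.6, 45.6 and 47.7 CPM in Nanog+E-cadherin+ replicates 1, 2 and 3. Why replicate 1 was higher in Hes1 was not tested. Dll1 and Dll3 were below 0 under every alternative run. The median of the 10 was -0.49, and it ran from -0.73 to -0.0059 when single libraries were left out and from -0.64 to -0.29 with the replicate block when both libraries of a number were left out (-0.29 without number 1 and without number 3).

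The replicate block raised the calls among the 10 members from 0 to 2 in edgeR, also with RLE or library totals, and to 3 with DESeq2 or limma-voom, with Hes5 the third, a description since these values chose the genes. Leaving out both libraries of a number gave 2 to 3 members. Among other Notch genes and proneural factors 5 were called with the block by DESeq2 and 5 by limma-voom, and 1 to 6 in edgeR when a number was left out. Over all genes, calls were 1 with no filter, 21 with DESeq2, 41 with the block, and with the block 44 under RLE, 35 under library totals, 304 in DESeq2 and 264 in limma-voom, and 182, 140 and 449 with the block when number 1, 2 or 3 was left out. The replicate number effect was called for 4 to 10 members when single libraries were left out, and for 6 to 8 under the other alternatives. The background moved too, so nothing is read from these member counts. In edgeR's main fit of the number, 4879 of all genes tested had an unadjusted p under 0.05. Dropping Nanog+E-cadherin- replicate 3 gave 6451 such genes and 10 members called. The values were 8479 and 9 for Nanog+E-cadherin+ replicate 3 dropped, and 2859 and 5 for Nanog+E-cadherin- replicate 1 dropped. The spread between 3 libraries a group limits these results, and for Hes5, at counts down to 58, counting error adds to it.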
